A study of Homo sapiens with 9 samples.

Results

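γH2AX ChIP-seq peaks were counted in 9 large human genes that lie at common fragile sites or are often named with them: LRP1B, IMMP2L, MACROD2, LSAMP, CTNNA3, DLG2, NBEA, DPYD and AUTS2. Every peak that overlapped the GENCODE gene body of a member by at least 1 bp was counted, without regard to its strength. The 8 peak lists held 97 such peaks among 213253 autosomal peaks. The genes belong to the 789 autosomal protein-coding genes of at least 300 kb (called large genes here), out of 19111 autosomal protein-coding genes. They are 731 to 2173 kb long and together cover 13.1 Mb, or 0.474% of the assembled autosomes. FHIT and WWOX, the other fragile-site genes most often studied, were kept apart and serve for comparison.

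The study compared where the histone mark appeared under different kinds of replication stress in a human B-lymphocyte line, named GM09027A in the sample labels and given another name in the methods. The 4 conditions were untreated cells and cells exposed for 24 h to 0.1 μg/mL aphidicolin (APH), an inhibitor of replicative DNA polymerases, to 2 mM hydroxyurea (HU), which depletes nucleotides, or to 200 μM methyl methanesulfonate (MMS), which methylates DNA. The methods give the APH dose in another unit. Each condition had 2 replicates, described as independent treatments and immunoprecipitations, all from 1 cell line. A peak list carries no expression values, so the labelled cell type could not be set against its markers.

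Common fragile sites are chromosome regions that break or gap on metaphase chromosomes when replication is partly inhibited, classically with low doses of APH. Many of them coincide with very long genes, in which replication forks must travel far between origins and may meet transcription. H2AX phosphorylated at its C-terminal tail (γH2AX) accumulates around stalled or broken forks and spreads along the chromatin, and fragility differs between cell types.

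The lists were of very unequal size, from 4327 and 4779 autosomal peaks in untreated cells to 69922 and 79891 under HU. APH lists held 14009 and 17658 and MMS lists 10465 and 12202. The number of peaks expected in a gene was therefore computed for each list as its autosomal peak number multiplied by the share of the assembled autosomes that the gene covers. The ratio of observed to expected peaks is 1 where a gene has its share. No read numbers accompany the lists, so the depth is unknown, and 0 peaks means that no region passed the p-value threshold of 0.001 of the peak caller.

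Sequences are shown for 2 intronic sites near the 5′ end of IMMP2L, because they bear on whether the lists found the same positions. Each held a peak of APH and a peak of HU, in different replicates. Each line is 300 bases of the plus strand of GRCh38, 5′ to 3′. Capitals mark bases inside the peaks of both lists, and as the shared stretch was longer than the window at both sites, all letters are capitals. The windows were chr7:111557215-111557514 (nearer the start) and chr7:111550231-111550530 (farther in).
IMMP2L, APH 1 and HU 2: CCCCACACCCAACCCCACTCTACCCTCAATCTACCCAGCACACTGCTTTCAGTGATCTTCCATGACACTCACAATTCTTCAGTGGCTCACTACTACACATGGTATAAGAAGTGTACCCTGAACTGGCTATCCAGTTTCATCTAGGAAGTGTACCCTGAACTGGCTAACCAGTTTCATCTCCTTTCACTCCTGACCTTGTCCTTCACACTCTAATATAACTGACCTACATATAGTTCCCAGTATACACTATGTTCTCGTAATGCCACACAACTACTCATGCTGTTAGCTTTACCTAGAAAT
IMMP2L, HU 1 and APH 2: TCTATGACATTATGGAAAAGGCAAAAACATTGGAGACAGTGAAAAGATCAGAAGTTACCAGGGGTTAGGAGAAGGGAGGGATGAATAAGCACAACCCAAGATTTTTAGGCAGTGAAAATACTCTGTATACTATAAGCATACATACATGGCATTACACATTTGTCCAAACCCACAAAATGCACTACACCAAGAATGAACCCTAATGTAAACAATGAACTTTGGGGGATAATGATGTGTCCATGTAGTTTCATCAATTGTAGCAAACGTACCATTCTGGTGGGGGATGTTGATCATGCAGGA
The shared stretches were 353 and 627 bp long and lay 5.15 and 12.1 kb from the 5′ end. GC content of the windows was 44.3% and 39.3%.

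The 9 genes held few γH2AX peaks under every condition. The sums in untreated cells were 3 and 6 peaks, against 22.6 and 20.5 expected. APH gave 25 and 11 peaks against 83.7 and 66.4, HU gave 13 and 10 against 378.6 and 331.4, and MMS gave 15 and 14 against 57.8 and 49.6. AUTS2 alone held 64 of the 97 peaks (66.0%). Of the 64 combinations of a list with any of the remaining 8 genes, 44 had no peak, and the highest count among them was 3.

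**Figure D1:**
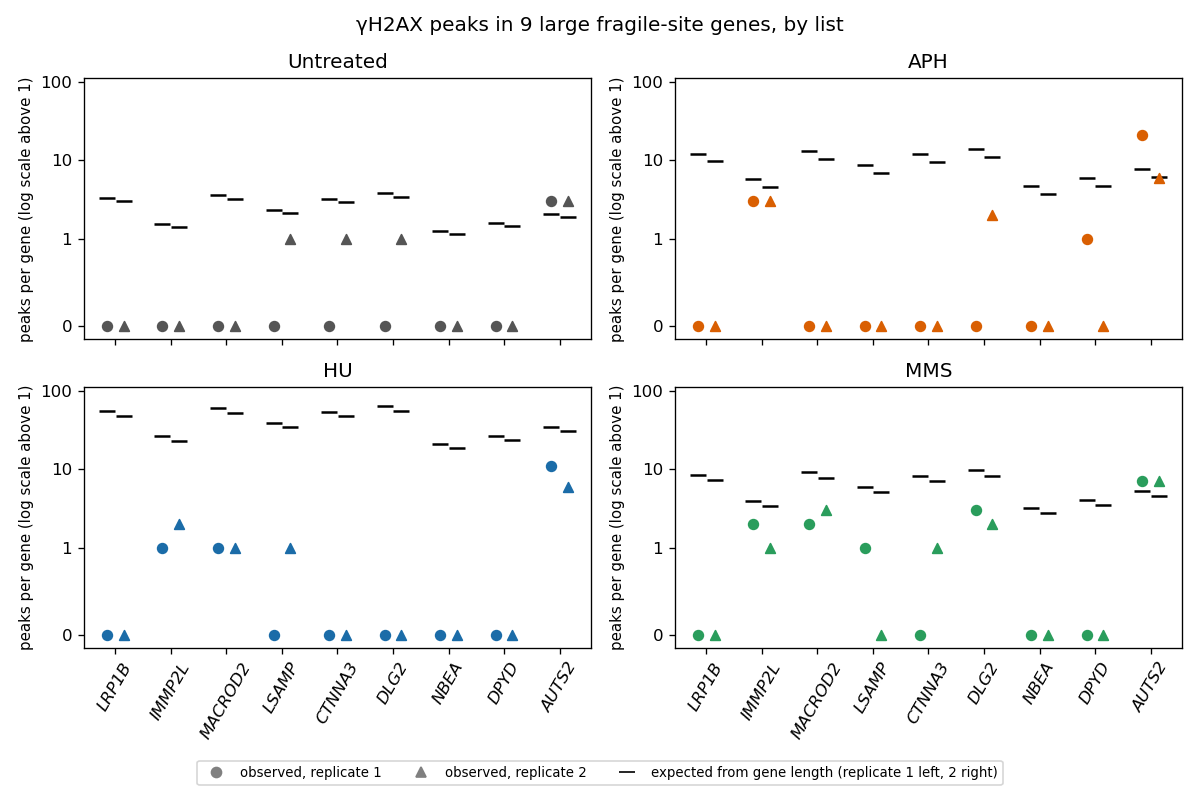
Peaks per gene in each list, with 1 panel per condition. Coloured symbols are the observed numbers in replicate 1 (circles) and replicate 2 (triangles) and black dashes the number expected from gene length, on an axis that is logarithmic above 1. AUTS2, with 3 and 3 peaks untreated and 21 and 6 after APH, is the only gene whose symbols reach the dashes.

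LRP1B and NBEA had no peak in any of the 8 lists. LRP1B, which encodes a receptor of the low-density lipoprotein receptor family, spans 1900 kb on the minus strand of chromosome 2, from 140231423 to 142131016 in GRCh38. Its expected number ran from 2.98 in untreated replicate 2 to 55.1 in HU replicate 1, and summed to 147.0 over the lists. The nearest peaks lay 1316 kb beyond its 3′ end (MMS replicate 2) and 755 kb beyond its 5′ end (HU replicate 2), so that LRP1B sat inside a stretch of 3970 kb without a peak in any list. Of the 789 large genes, 14 (1.77%) touched a longer peak-free stretch. NBEA, encoding the membrane-trafficking scaffold neurobeachin, is the shortest member at 731 kb and had 56.5 peaks expected over the lists. The stretch around it without peaks was 1590 kb, and 12.5% of large genes touched a longer one. Among large genes as a whole 16.7% had no peak in any list, and among the 164 of at least 700 kb the share was 17.7%, so that 2 of 9 is close to the background.

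DPYD, CTNNA3 and LSAMP held 1, 2 and 3 peaks in all. DPYD encodes the first enzyme of pyrimidine breakdown, and its single peak came from APH replicate 1, 873 kb from the 5′ end, while the other 7 lists had none. CTNNA3, the gene of an alpha-catenin that links cadherins to actin, had 1 peak in untreated replicate 2 and 1 in MMS replicate 2, against 143.2 expected over the lists. LSAMP, a cell adhesion protein of neurons, had 1 peak each in untreated replicate 2, HU replicate 2 and MMS replicate 1. None of these 6 peaks overlapped a peak of any other list. APH, the classical inducer of fragile-site breakage, gave 1 peak in these 3 genes over both replicates.

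DLG2 and MACROD2 had peaks mainly under MMS. DLG2, which encodes a postsynaptic scaffold protein and is the longest member at 2173 kb, had 3 and 2 peaks under MMS, 0 and 2 under APH, 0 and 1 in untreated cells and none under HU. The 5 MMS peaks were spread from 423 to 1795 kb from the 5′ end, and none was shared between replicates. MACROD2, an enzyme that removes ADP-ribose from proteins, had 2 and 3 peaks under MMS, 1 and 1 under HU, and none in untreated or APH-treated cells. The MMS lists were longer than the untreated ones and shorter than the APH ones. How many large genes show such a pattern of counts was not counted. All counts of both genes stayed below the expected number, which under MMS was 7.81 to 9.62 per list.

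IMMP2L, a subunit of the peptidase of the inner mitochondrial membrane, was the member with the second most peaks, 12 in all. It had 3 and 3 peaks under APH, 1 and 2 under HU, 2 and 1 under MMS and none in untreated cells. The APH replicates gave ratios of 0.520 and 0.656, with a mean of 0.588 ± 0.0958 (SD, n = 2), and 33.5% of large genes had a higher mean ratio under APH. Of the 6 APH peaks 4 lay within 81.3 kb of the 5′ end, and the sites whose sequences are given account for 2 of these. The MMS peaks lay in the middle and at the 3′ end of the gene, 425 to 844 kb from the start.

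AUTS2, a gene for a neuronal regulator that acts with Polycomb complexes, had the most peaks and the highest GC content of the 9. Untreated cells gave 3 and 3 peaks in it, APH 21 and 6, HU 11 and 6, and MMS 7 and 7, and it was the only member with a peak in every list. Its ratios were 1.45 and 1.60 in untreated cells, and 1.32 and 1.54 under MMS. The APH replicates, at 2.74 and 0.988, lay above and below all of these, and under HU the ratios were 0.318 and 0.198. GC content of its body was 41.1%, near the autosomal 41.0%, whereas the other 8 bodies ranged from 34.8% to 37.9%.

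The excess in APH replicate 1 came from the 3′ end of AUTS2. With the gene divided into 3 stretches of 398 kb, this list had 3, 1 and 17 peaks from 5′ to 3′. APH replicate 2 had 5, 0 and 1, so the replicates disagreed on where the peaks were as well as on how many. HU gave 5, 0 and 6 in replicate 1 and 3, 0 and 3 in replicate 2. MMS gave 4, 0 and 3, and 4, 2 and 1. Over the 8 lists the outer stretches held 26 and 32 peaks and the middle stretch 6.

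**Figure D2:**
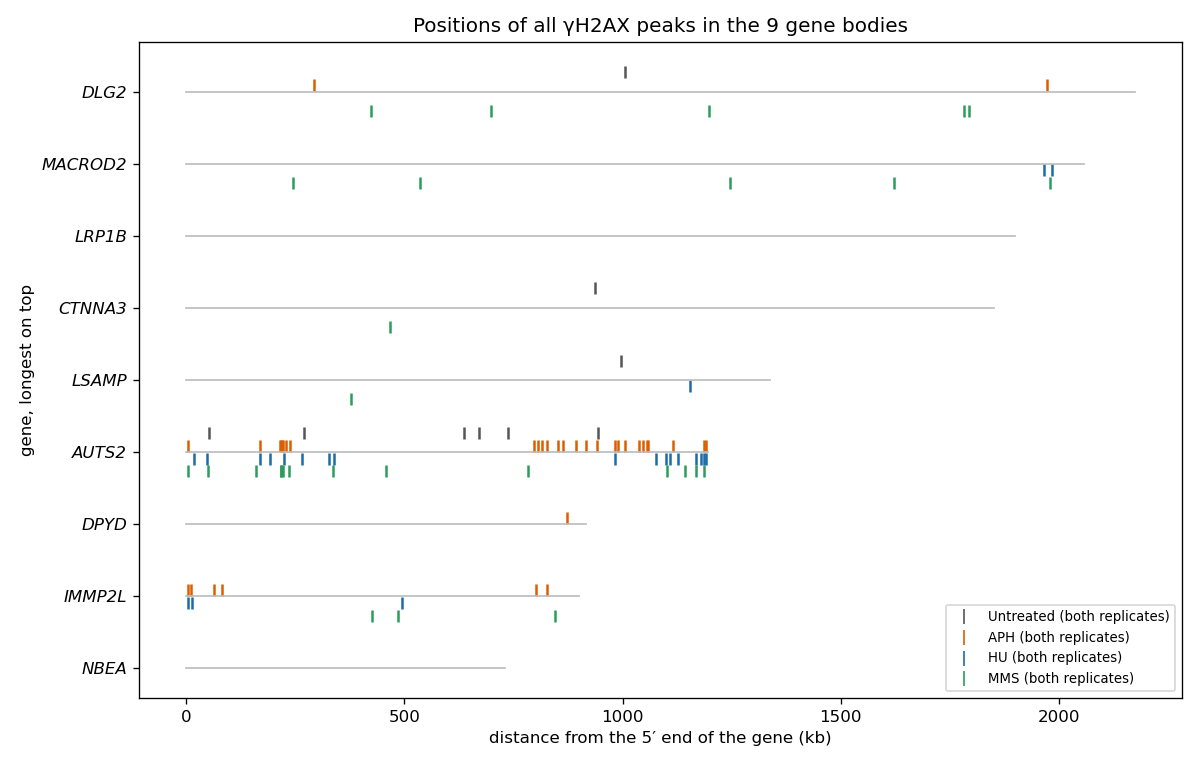
Position of each of the 97 peaks, in kb from the 5′ end of its gene, with genes ordered by length and colours for conditions, replicates together. AUTS2 carries 64 of the marks, with a run of APH marks toward its 3′ end that holds 17 peaks of APH replicate 1; LRP1B and NBEA carry none.

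Set beside all large genes, the members stood mostly at or near the bottom of the range. In untreated cells 8 of 9 were below expectation in both replicates, against 70.2% of large genes. The same 8 were below under APH (background 69.5%) and MMS (63.0%), and all 9 were below under HU (88.6%). AUTS2 was above expectation in both replicates in untreated cells (background 8.75%) and under MMS (16.3%). No member was above under APH (16.9%) or HU (7.22%). The member of median peak ratio had 0 peaks in untreated, APH-treated and HU-treated cells, and large genes without a peak made up 42.7% to 78.6% of a list, so many share this place.

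**Figure D3:**
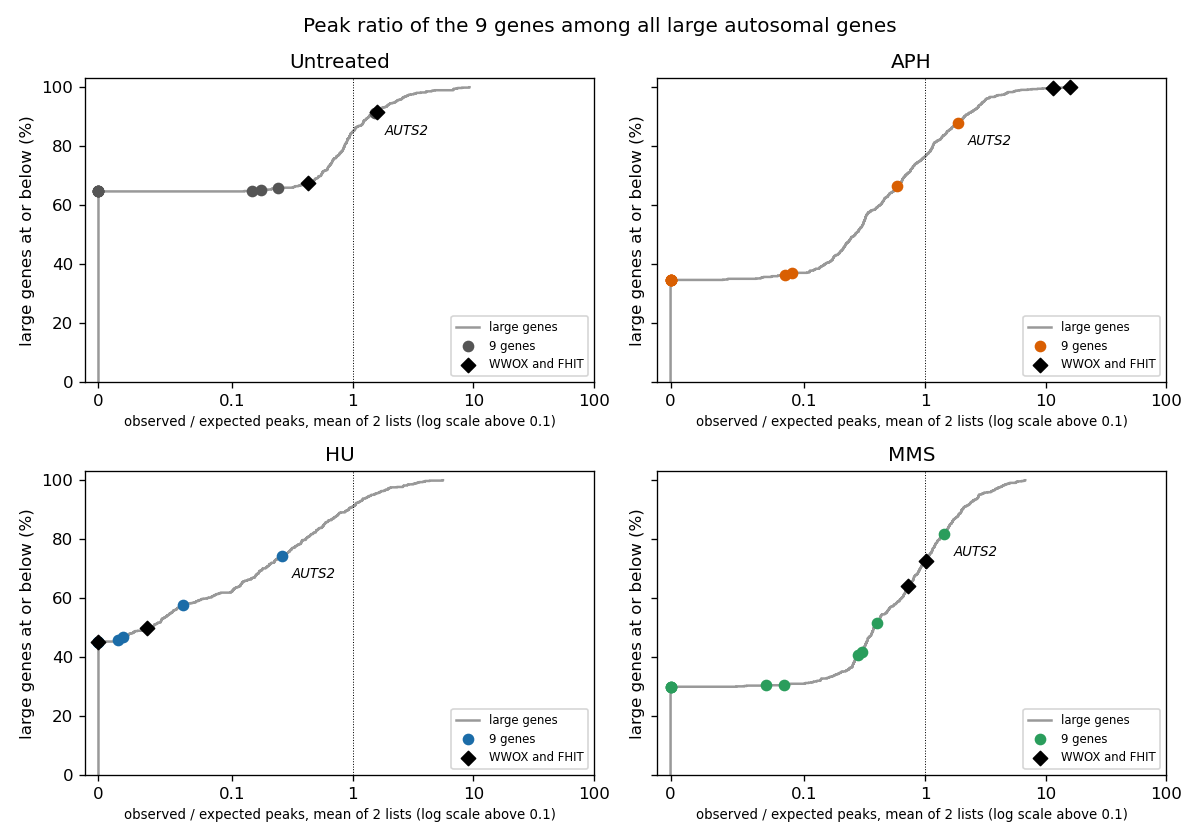
Cumulative share of the 789 large genes (vertical axis, percent) against the ratio of observed to expected peaks, mean of 2 lists, logarithmic above 0.1; circles are the 9 members and diamonds WWOX and FHIT. AUTS2 is the rightmost circle in each panel (largely covered by the WWOX diamond in untreated cells), with 8.87%, 12.2%, 25.9% and 18.4% of large genes above it in untreated, APH, HU and MMS cells, and under APH both diamonds lie far to its right.

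Summed over the 9 genes, the ratio averaged 0.213 ± 0.113 without treatment, 0.232 ± 0.0941 with APH, 0.0323 ± 0.00294 with HU and 0.271 ± 0.0162 with MMS (SD, n = 2 lists each). All large genes summed to 0.419, 0.709, 0.227 and 0.675 in the same order, so large genes had fewer peaks than their length predicts and the members, by length, fewer still. Untreated, APH and MMS lists overlapped in the summed ratio of the members, and the HU lists lay below all others. These are descriptions: the summed ratio was not tested, and an exact permutation test of 2 lists against 2 cannot give a p below 0.333. Without AUTS2 the means were 0.0805, 0.0678, 0.00955 and 0.154. With the stronger 50% of peaks the HU and MMS means were 0.0109 and 0.392, and with the strongest 4327 peaks of each list, the number in the smallest list, the HU lists had no peak in the 9 genes.

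The distance from expectation depended on whether base composition entered it. When the expected number was taken from 10 kb windows of like GC content in the same list, the summed ratios were 0.643 and 1.17 without treatment, 1.71 and 0.640 with APH, and 0.877 and 0.724 with MMS, with a mean of 0.905, 1.17 and 0.801. All large genes then summed to 0.570 and 0.628 without treatment, 1.08 and 0.970 with APH, and 0.854 and 0.904 with MMS, so that outside HU the members were not below large genes in both replicates of any condition. AUTS2 carried these sums: without it the means were 0.447, 0.471 and 0.580, and 0.0431 under HU. The untreated mean without AUTS2 joined ratios of 0 and 0.893, from 0 and 3 peaks. HU remained low at 0.108 and 0.105, where all large genes summed to 0.305 and 0.300. IMMP2L, at 36.1% GC, was then above expectation in both APH replicates (7.06 and 4.63) and both MMS replicates (2.76 and 1.09), from the same 3, 3, 2 and 1 peaks, because 0.425 to 0.920 peaks were expected. Under this expectation 5 of the 9 genes were below in both untreated lists (background 72.2%), 6 under APH (54.6%), 9 under HU (86.8%) and 6 under MMS (51.1%). AUTS2 was above it in both untreated lists (background 5.32%), and AUTS2 and IMMP2L were above it under APH (16.1%) and MMS (19.0%).

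**Figure D4:**
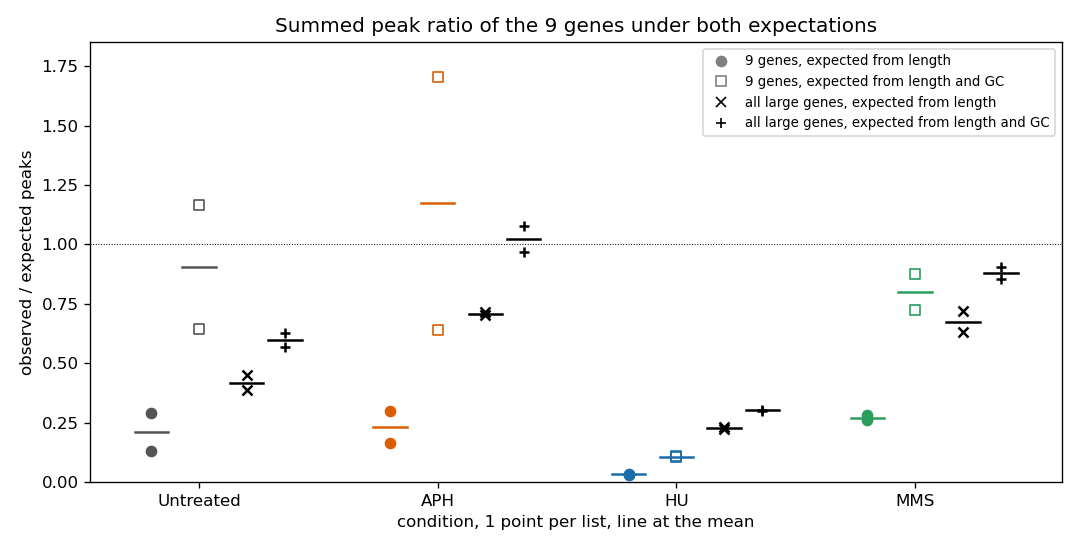
Ratio of observed to expected peaks by condition, 1 point per list with a line at the mean, for the 9 genes (filled circles, expected from length; open squares, expected from length and GC) and for all large genes (crosses and plus signs). The filled circles stay between 0.0302 and 0.299, while the open squares outside HU spread from 0.640 to 1.71 around the dotted line at 1.

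Low numbers were not confined to the gene bodies in most lists. Within 1 Mb on either side of the genes, peak density was 0.142 to 0.470 of the list's autosomal density. The density in the bodies divided by that in the flanks was 0.413 and 2.07 without treatment, 1.04 and 0.353 with APH and 0.861 and 0.772 with MMS, so that over all 9 genes the replicates of untreated and of APH-treated cells lay on both sides of 1. The APH values rest on AUTS2: without it they were 0.225 and 0.169, lower in the bodies in both replicates, and MMS gave 0.469 and 0.410. Untreated cells gave 0 and 1.01 without it. Under HU the ratio over all 9 genes was 0.0857 and 0.0700, with 209 and 197 peaks in the flanks. The flanks of DLG2 held 121 and 107 of these, and without DLG2 the HU ratios were 0.217 and 0.163. Leaving out DLG2 gave 1.36 and 0.928 with MMS, on both sides of 1, 1.67 and 0.456 with APH, and 1.10 and 2.45 without treatment. In AUTS2 the body was denser, with 53.5 peaks per Mb over the 8 lists against 9.50 per Mb in its flanks. In each of the other 8 genes the flanks were denser over the 8 lists together. CTNNA3 had 1.08 per Mb in its body and 49.0 in its flanks, and DLG2 3.68 and 138.5. The long HU lists supplied 84 of the 98 flank peaks of CTNNA3 and 228 of the 277 of DLG2, and over the 6 remaining lists the flanks held 7 and 24.5 per Mb against 1.08 and 3.68 in the bodies.

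Whether a treatment changed the number of peaks per gene was tested with limma on the log2 ratio of observed to expected peaks (0.5 added to each), over all 789 large genes with Benjamini-Hochberg adjustment. AUTS2 passed in none of the comparisons of APH with untreated cells (log2 difference 0.19, SE 0.62, adjusted p = 0.849), of MMS with untreated cells (−0.03, SE 0.62, adjusted p = 0.996) or of APH with MMS (0.22, SE 0.62, adjusted p = 0.803). The 95% interval for APH against untreated cells ran from −1.29 to 1.67. IMMP2L was at 1.30 (SE 0.45, adjusted p = 0.0894) for APH and 0.88 (SE 0.45, adjusted p = 0.253) for MMS against untreated cells, where it had no peak. MACROD2 passed as higher under MMS than in untreated cells (log2 difference 1.37, SE 0.28, adjusted p = 0.0479; background 1.14% higher) and as lower under APH than under MMS (−3.02, SE 0.28, adjusted p = 0.0144; background 1.52% lower, 0% higher), each resting on 5 MMS peaks against 0, so that its size depends on the pseudocount. At an unadjusted p under 0.05 limma had 28 large genes higher under APH than under MMS. The first of these limma calls was lost with a pseudocount of 1 (adjusted p = 0.122), with centred lists (0.142), with genes from 100 kb (0.0700), with precision weights (0.392), and without any single untreated, MMS or HU list (0.0852 to 0.240). The second was lost when the lists were centred on their median (adjusted p = 0.0780), and without either untreated list, either HU list or APH replicate 1 (0.0512 to 0.0701).

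Many calls of this fit came from genes without peaks. A gene without peaks receives a lower value the longer the list, because only the expected number grows. Simulated lists without a true difference also gave false limma calls in the comparisons with HU. APH against untreated cells had 3 members called lower and none higher (background 19.6% and 1.52%). At an unadjusted p under 0.05 limma had IMMP2L higher, the only member among 49 such large genes of 789. The 3 called lower, LRP1B, MACROD2 and NBEA, had 0 peaks in all 4 lists. Of the 155 large genes called lower in that comparison, 145 had no peak in either condition. MMS against untreated cells called LRP1B and NBEA lower in the same way (background 3.80%). HU against untreated cells called all 9 members lower and none higher, also without adjustment (background 63.0% and 1.01%, unadjusted 526 and 10 of 789 genes). APH against HU called 7 higher and none lower, also without adjustment (61.9% and 2.41%, unadjusted 518 and 21 of 789 genes). In the first of these, 297 of the 497 large genes called lower had no peak in either condition, and so did LRP1B, NBEA and DPYD. The other 6 members had peaks, but IMMP2L (1 and 2) and MACROD2 (1 and 1) had them under HU and not in untreated cells. Limma called both lower although their ratios were higher under HU. CTNNA3, DLG2 and LSAMP had at most 1 peak in any list of that comparison. In APH against HU, 193 of the 488 called higher had no peak in either condition, among them LRP1B, NBEA and CTNNA3. AUTS2 was at −2.43 for HU against untreated cells (SE 0.62, adjusted p = 0.0125), with ratios of 0.318 and 0.198 against 1.45 and 1.60. That call was lost with peaks merged within 5 kb (−1.50, adjusted p = 0.121), with equal numbers of peaks (−2.81, adjusted p = 1), and without untreated replicate 2 (adjusted p = 0.0501) or HU replicate 2 (0.0668). The median log2 difference of all large genes was −0.54 for APH, −3.12 for HU and −0.10 for MMS against untreated cells, 2.05 for APH against HU and −0.38 for APH against MMS. AUTS2 lay 0.69 above this median for HU against untreated cells. Centring the lists on their median raised every gene by the same 3.01 in this comparison, which placed AUTS2 at 0.58 (adjusted p = 0.719).

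FHIT and WWOX behaved otherwise under APH. FHIT, a diadenosine triphosphate hydrolase gene at FRA3B, had 163 and 48 peaks under APH and 0 and 2 in untreated cells (log2 difference 4.71, SE 0.93, adjusted p = 0.0148). WWOX, an oxidoreductase gene at FRA16D, had 160 and 53 under APH and 5 and 1 in untreated cells (3.46, SE 0.82, adjusted p = 0.0242). Both limma calls were lost with centred lists (adjusted p = 0.132 each), with precision weights (0.0991 each), with equal numbers of peaks (0.485 and 0.366) and without either untreated list or APH replicate 1 (0.0568 to 0.133). The WWOX call was also lost with peaks merged within 5 kb (2.56, adjusted p = 0.057). Under APH the mean ratio was 11.6 ± 7.52 for FHIT and 15.9 ± 9.24 for WWOX (SD, n = 2). Of the large genes, 1 and 0 had a higher mean. The APH lists were longer than the untreated and MMS lists. In how many large genes the counts separate APH from the other conditions was not counted. No member had more than 21 peaks in any list, and WWOX had none under HU, where AUTS2 had 11 and 6.

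The large genes outside the 9 whose 4 condition means lay nearest to the median of the members were DGKB, MDGA2 and LRRTM4. Each of these 3 had 0 peaks in all lists, and their bodies are 830 to 846 kb long with 35.0% to 35.2% GC, so the likeness is that of genes of a given length without peaks.

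The bands that the study listed as fragile sites contain 3 of the members, CTNNA3, NBEA and DPYD, which held 3 of the 97 peaks. The other 6 members lie outside those bands.

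The peaks found in the members were seldom shared between lists. Their median fold enrichment was 2.61 (range 2.35 to 3.20) and their median width 545 bp (200 to 1685 bp), where the medians of whole lists ran from 2.55 to 2.77 and from 519 to 764 bp. A q-value of at most 0.05 was reached by 13 of the 97, all from HU, of which 11 lay in AUTS2 and 1 each in IMMP2L and MACROD2. In the whole lists that share was 78.4% and 60.3% under HU and 0.164% to 1.31% elsewhere. Of the 97 peaks 21 (21.6%) overlapped a peak of another list, at 10 sites, of which 8 were in AUTS2 and 2 in IMMP2L. Over all autosomal peaks, with lists weighted as in the members, 49.5% did. Of the 10 sites 1 joined replicates of the same condition, and the other 9 joined different conditions. At the former site, in AUTS2, the peaks of MMS 1 and MMS 2 (934 and 1111 bp wide) shared 244 bp, with fold enrichments of 2.73 and 2.74. By condition, 2 of 29 member peaks under MMS overlapped the other replicate, where whole lists had 5.98% and 6.97%. None did of 36 under APH (whole lists 10.4% and 13.3%), 23 under HU (43.3% and 51.0%) or 9 in untreated cells (16.0% and 19.4%). The site with the most lists, 3, held APH replicate 1, HU replicate 1 and MMS replicate 1 near the 3′ end of AUTS2, where they shared 33 bp that touch an annotated exon. No site held a peak in 6 or more lists. Exons were touched by 6 of the 97 peaks, 5 of them in AUTS2 and 1 in DLG2. They make up 2.08% and 1.30% of the bases of these genes. A peak can touch an exon with part of its width, so these shares are not an expected number. None of the 97 peaks lay within 1 kb of a member's 5′ end, a stretch so short that few would be expected there.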

How the data were processed

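Peaks came from 8 γH2AX ChIP-seq lists (input not analysed here). Per the methods, the authors aligned reads to hg38 with Bowtie2, filtered them with SAMtools and ran MACS2 in its broad mode for each replicate against input. The deposited lists give each peak a score (not used here), the ratio of its signal to background (fold enrichment), and its p-value and q-value as −log10, as the authors' peak caller wrote them. Gene bodies were taken from GENCODE release 44 (GRCh38, the same build) and peaks on chromosomes 1 to 22 were counted with Python 3.11.15 and pandas 2.3.3. Expected numbers used assembled bases only (2756 Mb). The limma test (limma 3.58.1, R 4.3.3) used trend = TRUE over 4 groups of 2 lists, because the values are peak numbers and not read counts. A threshold of 0.05 on the adjusted p was used. Replicates came from the labels, and precision rests on their spread alone. Calculations were tested on simulated data. Simulated lists without a true difference gave false limma calls in the comparisons with HU, and some with equal numbers of peaks. Located peaks were to be the 2 per condition with the highest fold enrichment shared by both replicates, and sites with peaks in at least 6 lists. The genes, lists and tests were chosen with earlier results of these data known. RefSeq gene bodies, equal numbers of peaks in the limma fit, and flanks without each gene were added after the data were seen. A sequence and a list of other fragile-site genes are not reported here.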

Additional observations from a re-analysis of the deposited data

How the results depend on the processing

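As means of the 2 lists, summed ratios of the 9 genes stayed below 0.4 in every condition under all alternatives except the expectation from windows of like GC content. That expectation gave 0.905 (untreated), 1.17 (APH), 0.107 (HU) and 0.801 (MMS), or 0.447, 0.471, 0.0431 and 0.580 without AUTS2. By length, the ratios without AUTS2 were 0.0805, 0.0678, 0.00955 and 0.154. With only peaks found in both replicates they were 0, 0, 0 and 0.289, and the last rests on 1 site in AUTS2. The stronger 50% of peaks gave 0.0109 under HU and 0.392 under MMS, equal numbers of peaks gave 0 and 0.390, and merged peaks gave 0.0740 under HU. Single MMS lists reached 0.403 (replicate 2, stronger 50% of peaks) and 0.439 (replicate 1, equal numbers of peaks). Leaving out a replicate gave 0.132 to 0.293 (untreated), 0.166 to 0.299 (APH), 0.0302 to 0.0343 (HU) and 0.259 to 0.282 (MMS). Genes above expectation in both replicates numbered 0 in untreated cells with the stronger 50% of peaks (3.30% of large genes), 1 under APH with the expectation of the own chromosome (17.6%), and 2 under APH (16.1%) and 2 under MMS (19.0%) with the GC expectation. With flanks of 500 kb the ratio of gene to flank density moved from 1.24 to 2.27 in untreated cells and from 0.816 to 0.947 under MMS, and leaving out a replicate gave 0.413 to 2.07, 0.353 to 1.04, 0.0700 to 0.0857 and 0.772 to 0.861 for untreated, APH, HU and MMS.

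The number of large genes called by limma was 167 for APH, 505 for HU and 39 for MMS against untreated cells, 507 for APH against HU and 12 for APH against MMS, and it depended on the setting. In the same order, centring gave 0, 146, 0, 141 and 0, of which 0 counts had 137, 204 and 127 genes at an unadjusted p under 0.05. Genes of at least 500 kb gave 74, 234, 35, 237 and 5, and genes of at least 100 kb gave 464, 1608, 0, 1678 and 90. The stronger 50% of peaks gave 295, 600, 250, 564 and 26, and precision weights 0, 400, 0, 525 and 4. Equal numbers of peaks gave 6, 4, 27, 12 and 31. Merged peaks gave 168 and a pseudocount of 1 gave 0 for MMS against untreated cells, and the latter gave 5 for APH against MMS. Leaving out a replicate gave 2 to 232, 430 to 512, 0 to 206, 362 to 511 and 0 to 42. Centring adds 1 value to every gene of a comparison, 3.01 for HU against untreated cells and −2.40 for APH against HU. It moved the former difference from −2.43 to 0.58 for AUTS2, from −1.70 to 1.32 for IMMP2L and from −2.27 to 0.75 for MACROD2, and the latter from 0.62 to −1.78 for MACROD2 (adjusted p = 0.0109). With the replicate number as a block (replicate block) MMS against untreated cells had 158 calls, and the WWOX call under APH was lost (adjusted p = 0.0558). Differences between replicates 1 and 2 correlated little between conditions, at −0.0433 to 0.0605 over 789 genes. As 42.7% to 78.6% of large genes had no peak in a list, this cannot decide whether replicates of the same number share a batch. The cause of the other changes was not tested. The depth behind the lists is unknown, and regions under the threshold of the peak caller are not in them.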
